A study of Homo sapiens with 12 samples.

Results

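The genes that make, package, take up, degrade and sense acetylcholine were followed across motor neuron cultures exposed to cis-chlordane, an organochlorine pesticide. The set held 10 of the 28278 genes in the deposited count table and was chosen by name, as the rows CHAT, SLC18A3, SLC5A7, ACHE, BCHE, COLQ, PRIMA1, CHRNA3, CHRNA4 and CHRNB2. Every group derived from the line WA09-Islet1-GFP, human embryonic stem cells of wild-type genotype in which GFP reports Islet1, a transcription factor of motor neurons. Cultures differentiated to motor neurons were exposed to cis-chlordane dissolved in DMSO, or to DMSO as vehicle, over 16 hours, and FACS then split each culture into GFP-positive and GFP-negative cells. The 12 libraries formed 4 groups of 3 biological replicates, namely control GFP-positive, treated GFP-positive, control GFP-negative and treated GFP-negative cells. The sample labels gave the dose as 10 µM, whereas the methods of the study named a higher dose for the sequenced cells. Titles of the treated libraries also carried the word untreated, and the treatment field of the labels decided the group. Library depth ran from 23414935 to 38347050 counts. Biological replicates were independent thaws of stored cells, and the p-values therefore measure the spread between thaws of a single line.

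Acetylcholine is the transmitter of motor neurons. Choline acetyltransferase (CHAT) joins choline to the acetyl group of acetyl-CoA, the vesicular acetylcholine transporter (SLC18A3) loads the product into synaptic vesicles, and the high-affinity choline transporter (SLC5A7) returns choline from the cleft to the terminal. Acetylcholinesterase (ACHE) and butyrylcholinesterase (BCHE) hydrolyse the transmitter, and they are tethered by a collagen tail (COLQ) or a membrane anchor (PRIMA1). CHRNA3, CHRNA4 and CHRNB2 encode subunits of neuronal nicotinic receptors, the ligand-gated channels through which nerve cells respond to acetylcholine.

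CHAT and SLC18A3 occupy a shared stretch of the genome, the cholinergic gene locus, which sets them apart from the other members. In GENCODE on hg38, CHAT spans chr10:49609095-49667942 on the plus strand. SLC18A3 spans chr10:49610310-49612720 on the same strand and lies whole within the bounds of CHAT, with 0 exon bases in common. Its single exon began 1.22 kb downstream of the first annotated CHAT start and ended 3.63 kb downstream of it, ahead of the first exon of the canonical CHAT transcript at 4.94 kb. CHRNA3, on the minus strand of chromosome 15, shared 198 exon bases, or 4.16% of its exon bases, with CHRNA5 on the opposite strand. Reads from those bases were not separated here, because the sources used do not state whether counting used the strand.

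**Figure D1:**
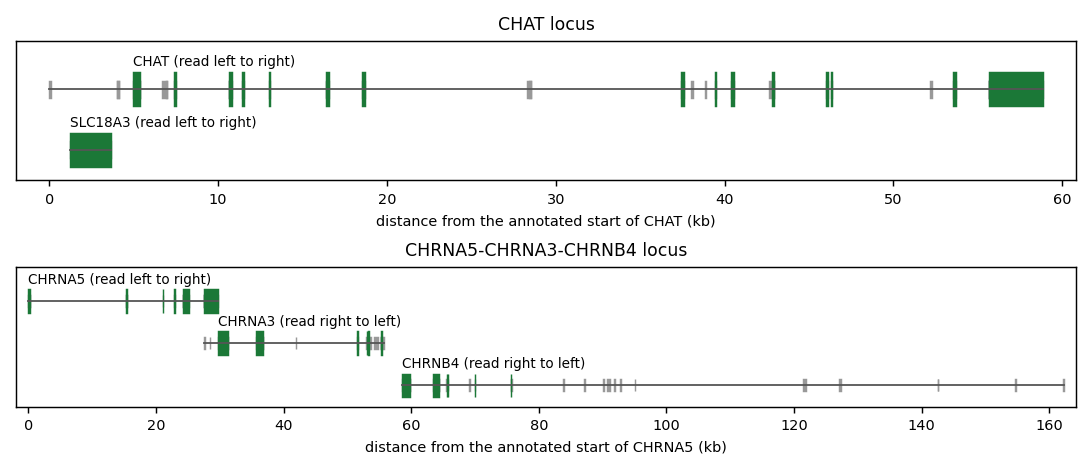
Exons of the CHAT locus (upper panel) and of the CHRNA5-CHRNA3-CHRNB4 cluster (lower panel), drawn to scale as distance in kb from the first annotated start of CHAT or of CHRNA5. Green blocks are exons of the canonical GENCODE transcript, grey blocks are exons of any other transcript, and SLC18A3 lies between 1.22 and 3.63 kb, inside the bounds of CHAT.

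RefSeq promoter sequences (GRCh38.p14) were matched by symbol for 9 of the 10 members, CHRNA4 being the exception. The 250 bases upstream of the start are shown for the neighbouring pair CHAT and SLC18A3, for SLC5A7, which fell with them after treatment, and for COLQ, the member that rose. Capitals mark CG dinucleotides, and each sequence reads 5′ to 3′ along its gene. The windows are chr10:49608845-49609094 (plus strand) for CHAT, chr10:49610060-49610309 (plus strand) for SLC18A3, chr2:107986274-107986523 (plus strand) for SLC5A7 and chr3:15498873-15499122 (minus strand) for COLQ.
CHAT: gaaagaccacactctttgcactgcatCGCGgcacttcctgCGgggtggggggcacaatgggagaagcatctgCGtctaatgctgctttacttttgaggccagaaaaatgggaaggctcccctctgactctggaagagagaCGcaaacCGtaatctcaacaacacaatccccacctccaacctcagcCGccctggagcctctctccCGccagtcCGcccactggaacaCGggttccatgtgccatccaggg
SLC18A3: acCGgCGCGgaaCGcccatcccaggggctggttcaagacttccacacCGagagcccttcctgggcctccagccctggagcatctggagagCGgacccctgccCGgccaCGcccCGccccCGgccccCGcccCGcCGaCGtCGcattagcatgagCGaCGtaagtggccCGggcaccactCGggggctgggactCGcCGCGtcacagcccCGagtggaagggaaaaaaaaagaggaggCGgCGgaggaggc
SLC5A7: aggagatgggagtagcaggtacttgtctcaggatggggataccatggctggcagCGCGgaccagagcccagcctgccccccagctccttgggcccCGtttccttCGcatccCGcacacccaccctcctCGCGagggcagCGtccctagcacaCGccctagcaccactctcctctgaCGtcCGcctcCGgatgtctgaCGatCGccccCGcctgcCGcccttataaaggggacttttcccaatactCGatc
COLQ: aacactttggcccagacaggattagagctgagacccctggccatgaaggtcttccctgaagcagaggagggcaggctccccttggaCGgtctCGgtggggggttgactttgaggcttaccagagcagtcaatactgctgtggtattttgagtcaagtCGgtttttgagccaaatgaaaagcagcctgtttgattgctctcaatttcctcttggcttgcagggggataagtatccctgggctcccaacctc
The windows of CHAT and SLC18A3 held 10 and 25 CG dinucleotides at 57.6% and 70.8% GC, SLC5A7 held 17 at 64.0%, and COLQ held 3 at 52.8%. Over all 27305 windows the medians were 11 CG dinucleotides and 58.0% GC. ACHE and CHRNA3, not printed, held 26 each and BCHE held 2. Short motifs were searched on both strands of the same windows. The cAMP response element TGACGTCA, the C/EBP-ATF response element TGATGNAA, the unfolded protein response element core TGACGTG, the homeodomain letters TAATTA and the E-box CAGCTG were found in 0 of the 9 windows, and in 1.8%, 3.2%, 1.7%, 4.5% and 13.8% of all windows. The cAMP element and the unfolded protein response core overlap in their opening letters. The TATA box letters TATAAA were found in SLC5A7, at position −30 from the start, and in BCHE, at −101 on the opposite strand. They occurred in 11.1% of all windows. Over the 12219 windows of tested genes, the share was 5.7% for TATAAA. For the motifs before it, in the order given, it was 2.7%, 1.6%, 2.1%, 2.0% and 12.9%. A match is a description of letters in the window. A single window was used per symbol, so other starts of a gene were not searched. The COLQ window lies inside the GENCODE bounds of that gene, chr3:15450133-15521751. The CHAT window precedes the first annotated start, not the first exon of the canonical transcript at 4.94 kb.

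Levels are given in CPM, the count relative to the TMM-scaled depth of its library, over the 12 libraries, in the order of replicates 1, 2 and 3. A gene was called when edgeR's quasi-likelihood test gave a Benjamini-Hochberg adjusted p under 0.05 over all genes tested and the change was 2-fold or more. Of the 10 members, 9 passed the filter on low counts in each comparison. PRIMA1 did not, with at most 1 count in any library, where a floor of 3 counts corresponded to 0.0782 to 0.128 CPM, so it was not detectable at this depth. In bulk libraries, fewer cells of a type and less RNA per cell cannot be told apart.

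Genes for synthesis, vesicular loading and choline uptake were lower in treated than in control GFP-positive cells, along with 2 of the 3 receptor subunits. The esterase genes did not pass the test, and COLQ rose. Of the 9 members tested, 5 were called lower and 1 higher. Among all 15333 genes tested, 11.2% were called lower and 12.8% higher. The median log2 fold change of the 9 was −1.15, against 0.03 for all genes.

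CHAT stood at 35.9, 52.8 and 47.7 CPM in control and at 10.8, 11.7 and 12.6 CPM in treated GFP-positive cells. Every treated library was below every control library, and CHAT fell 3.71-fold (log2 fold change −1.89, SE 0.19, adjusted p = 4e-10). SLC18A3, the most abundant member per kb of exon in control GFP-positive cells, measured 776, 922 and 674 CPM in controls and 164, 230 and 119 CPM after treatment. Again the groups did not overlap, and the fall was 4.42-fold (−2.14, SE 0.19, adjusted p = 1.7e-11). SLC5A7 went from 293, 325 and 364 CPM to 124, 165 and 134 CPM, with all treated libraries lower, a fall of 2.21-fold (−1.15, SE 0.16, adjusted p = 3.4e-07). The levels left after treatment were 25.7% of control for CHAT, 21.6% for SLC18A3 and 43.1% for SLC5A7.

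Acetylcholinesterase did not follow the biosynthetic genes. ACHE read 237, 282 and 222 CPM in control and 289, 282 and 232 CPM in treated GFP-positive cells, so the groups overlapped (log2 fold change 0.18, 95% interval −0.14 to 0.51, adjusted p = 0.34). BCHE was low, at 5.67, 4.98 and 6.59 CPM in control and 4.32, 7.01 and 3.76 CPM in treated cells, again overlapping (−0.12, 95% interval −0.64 to 0.39, adjusted p = 0.71). The collagen tail gene COLQ was also scarce, at 4.59, 3.13 and 2.59 CPM in controls. In treated GFP-positive cells COLQ reached 9.9, 7.01 and 6.12 CPM, above every control library, and rose 2.34-fold (1.23, SE 0.26, adjusted p = 0.00018). Without treated replicate 1, the highest of the 3, the log2 fold change of COLQ was 0.996 and the call was lost. Its exons shared 462 bases, or 5.0%, with EAF1 on the opposite strand.

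The receptor subunits moved by different amounts. CHRNA3, the alpha subunit typical of autonomic ganglia, measured 124, 139 and 132 CPM in controls and 25.2, 34.4 and 20.7 CPM in treated GFP-positive cells. This was the largest fall among the 9 members tested, 4.7-fold without overlap (−2.23, SE 0.18, adjusted p = 2.4e-12). CHRNB2, the beta partner of CHRNA4 in the main brain receptor, dropped from 124, 180 and 144 CPM to 58.6, 61 and 69.5 CPM, and the fall was 2.26-fold (−1.18, SE 0.17, adjusted p = 4.1e-07). When a trend with GC content was removed, CHRNB2 stood at −0.87 and was no longer called. CHRNA4 read 187, 221 and 199 CPM in controls and 154, 161 and 103 CPM after treatment. Its groups did not overlap and its adjusted p was 0.018, but at 1.39-fold lower it stayed short of the 2-fold limit.

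**Figure D2:**
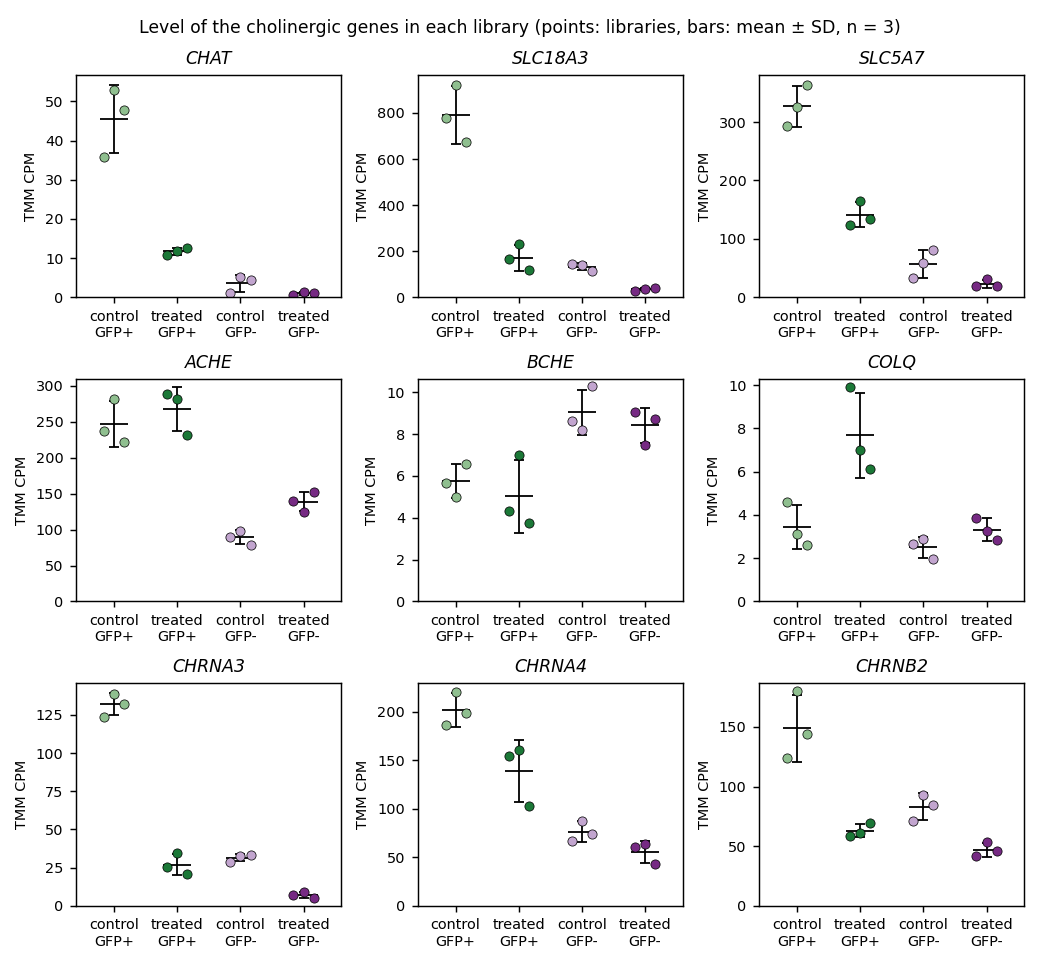
TMM CPM (linear axis from 0) of the 9 detected members in each library, with 1 point per library, the group mean as a horizontal bar and whiskers of 1 SD (n = 3). CHAT, SLC18A3, SLC5A7 and CHRNA3 lie lower in treated than in control GFP-positive libraries without overlap, whereas ACHE overlaps at means of 247 and 268 CPM.

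In GFP-negative cells the biosynthetic genes and CHRNA3 also fell. Of the 9 members tested, 4 were called lower and 0 higher, where 9.75% and 8.59% of the 15513 genes tested were called lower and higher. By DESeq2 0 were called higher as well, and at an unadjusted p under 0.05 there was 1 higher member, ACHE, in either tool. The median of the 9 was −0.84, against −0.01 for all genes.

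CHAT was scarce in these cells, at 1.18, 5.05 and 4.35 CPM in controls and 0.475, 1.42 and 1.03 CPM after treatment. Control replicate 1 lay below treated replicate 2, and the fall of 3.64-fold carried a wide error (−1.86, SE 0.57, adjusted p = 0.032). The CHAT call was lost without control replicate 2 (−1.51, adjusted p = 0.13), treated replicate 1 (−1.56, adjusted p = 0.12) or treated replicate 3 (−1.91, adjusted p = 0.11). SLC18A3 was more firmly placed, at 145, 140 and 116 CPM in controls and 29.2, 36.2 and 40.1 CPM in treated cells, a 3.85-fold fall without overlap (−1.94, SE 0.18, adjusted p = 8.8e-05). SLC5A7 fell 2.52-fold, from 32.9, 58.2 and 80.9 CPM to 19, 30.6 and 19.4 CPM (−1.33, SE 0.32, adjusted p = 0.011). That call was lost without treated replicate 1 (−1.24, adjusted p = 0.067) or treated replicate 3 (−1.24, adjusted p = 0.071).

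CHRNA3 in GFP-negative cells went from 28.6, 32.7 and 33.2 CPM to 7.08, 8.65 and 5.13 CPM, a fall of 4.59-fold (−2.2, SE 0.23, adjusted p = 0.00016). ACHE was 90.1, 98.3 and 79 CPM in controls and 140, 124 and 152 CPM after treatment, with every treated library higher. The ACHE difference of 1.53-fold (0.62, SE 0.16, adjusted p = 0.015) was below the 2-fold limit. CHRNB2, with a log2 fold change of −0.84 (adjusted p = 0.0052), and CHRNA4, with −0.48 (adjusted p = 0.093), did not reach it either. BCHE at −0.12 (adjusted p = 0.71) and COLQ at 0.38 (adjusted p = 0.37) overlapped between control and treated GFP-negative libraries.

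**Figure D3:**
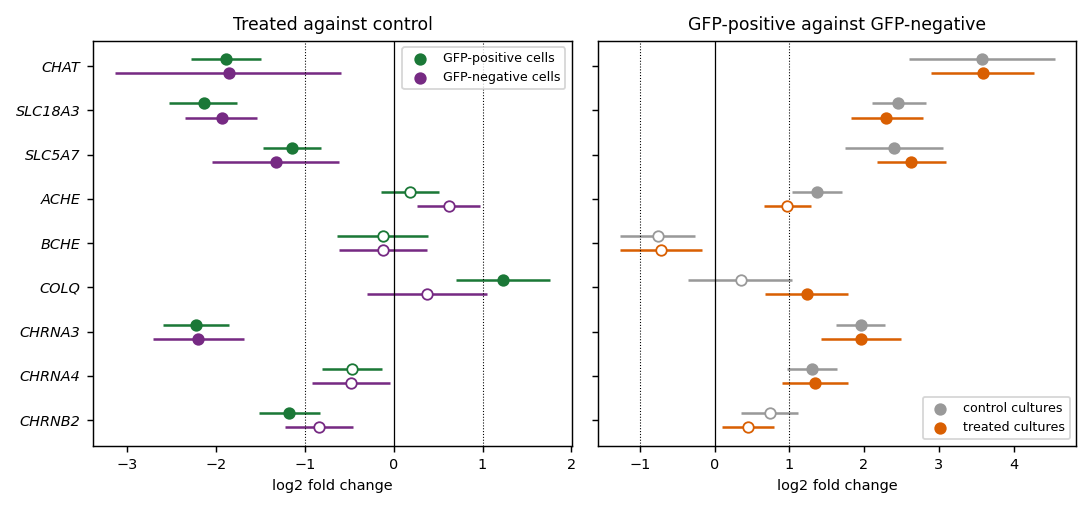
Log2 fold changes of the 9 members tested, treated against control within each sort fraction (left) and GFP-positive against GFP-negative within each treatment (right), with 95% intervals as horizontal lines. Filled points were called, dotted lines mark a 2-fold change, and comparisons within a panel side by side show CHAT at −1.89 and −1.86 on the left and at 3.58 and 3.59 on the right.

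Whether the response differed between the sort fractions was tested with an interaction term in a fit of all 12 libraries, with the GFP-negative response subtracted from the GFP-positive one. Of the 9 members, 0 passed an adjusted p under 0.05, by edgeR or by DESeq2, while 2.19% of the 16226 genes tested passed by edgeR. At an unadjusted p under 0.05 there was 1 member by edgeR, ACHE, and 2 by DESeq2, ACHE and COLQ. The difference was −0.52 for ACHE (95% interval −0.97 to −0.07, adjusted p = 0.23) and 0.77 for COLQ (95% interval −0.1 to 1.63, adjusted p = 0.37). The interval for CHAT, −1.36 to 1.11, was wide, and that for SLC18A3 ran from −0.92 to 0.34, so differences of these sizes between the fractions were not resolved with 3 libraries a group.

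Sorting on GFP separated the cholinergic genes in control cultures. GFP-positive cells held more of 6 of the 9 members, with 0 called lower, and the median log2 fold change was 1.37 against −0.02 for all genes. Of the 15404 genes tested, 7.47% were called higher and 15.3% lower in GFP-positive cells. DESeq2 also called 0 members lower, and 1, BCHE, was lower at an unadjusted p under 0.05 in both tools. CHAT differed most among the members, 11.9-fold higher in GFP-positive cells (3.58, SE 0.44, adjusted p = 0.00014). SLC18A3 was 5.52-fold, SLC5A7 5.28-fold, CHRNA3 3.88-fold, ACHE 2.58-fold and CHRNA4 2.47-fold higher, with adjusted p of 0.00013 or less in each case. CHRNB2 was 1.67-fold higher (adjusted p = 0.0072) and COLQ 1.27-fold higher with overlapping libraries (adjusted p = 0.41). BCHE ran the other way, at 8.64, 8.22 and 10.3 CPM in control GFP-negative cells, 1.69-fold above the GFP-positive level (adjusted p = 0.022).

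After treatment, CHAT, SLC18A3, SLC5A7, CHRNA3 and CHRNA4 were again called higher in GFP-positive than in GFP-negative cells, joined by COLQ. That made 6 of 9 called higher and 0 lower, at a median of 1.34 against 0.05 for all genes, where 10% of the 15416 genes tested were called higher and 13.7% lower. In both tools BCHE was lower at an unadjusted p under 0.05, and DESeq2 called 0 lower. CHAT was 12.0-fold higher (adjusted p = 2.7e-06). COLQ, 2.35-fold higher (adjusted p = 0.0016), lost its call without treated GFP-positive replicate 1 (0.986). ACHE, at 1.96-fold (0.97, adjusted p = 0.00014), sat just under the limit and passed it under 4 alternatives. These were library size alone (1.14), the removal of a GC trend (1.26), and leaving out treated GFP-positive replicate 3 (1.04) or treated GFP-negative replicate 3 (1.03). BCHE, 1.65-fold lower, passed it without treated GFP-positive replicate 2 (−1.07) and with the GC trend removed (−1.01).

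The level in the GFP-negative library of a culture, as a share of its GFP-positive partner, also differed by gene. In controls the share was 3.29% to 9.56% for CHAT, 15.1% to 18.6% for SLC18A3, 11.2% to 22.2% for SLC5A7 and 34.9% to 38.1% for ACHE. ISL1, the gene the reporter follows, had shares of 3.78% to 4.08%. SLC18A3 thus stood higher in GFP-negative cells, relative to their partners, than CHAT in each control culture, although both genes come from the same locus. What part carried-over GFP-positive cells had in these shares was not tested.

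Levels per kb of exon rank the members within a group, with exons merged over all annotated transcripts of a gene. This length was 2.411 kb for SLC18A3, 4.074 kb for ACHE, 6.588 kb for CHAT and 11.897 kb for CHRNA4. Which transcripts the cells used was not determined, so ranks between genes depend on the annotation. In control GFP-positive cells SLC18A3 led at 328 ± 51.6 CPM per kb (SD, n = 3), followed by SLC5A7 at 63.3 ± 6.88 and ACHE at 60.6 ± 7.73, whose libraries overlapped. CHRNA3 at 27.7 ± 1.53 and CHRNB2 at 25.4 ± 4.8 overlapped as well. CHRNA4 followed at 17 ± 1.47, CHAT at 6.9 ± 1.32, BCHE at 1.87 ± 0.263 and COLQ at 0.372 ± 0.112, each clear of its neighbours. After treatment, SLC18A3 at 70.9 ± 23.2 CPM per kb overlapped ACHE at 65.7 ± 7.62, and CHRNA3 at 5.62 ± 1.46 ranked below CHRNA4 at 11.7 ± 2.67 and CHRNB2 at 10.7 ± 0.969. In treated GFP-negative cells ACHE ranked first, at 34 ± 3.37 CPM per kb, above SLC18A3 at 14.6 ± 2.29 without overlap.

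Ratios of counts within a library do not depend on scaling between libraries but, unlike the levels above, are not divided by exon length. The count ratio of ACHE to SLC18A3 was 0.305, 0.306 and 0.328 in control and 1.76, 1.23 and 1.96 in treated GFP-positive libraries. In GFP-negative libraries the count ratio was 0.623, 0.704 and 0.683 in controls and 4.79, 3.44 and 3.79 after treatment. Per kb of merged exon, the treated GFP-positive ratios were 1.04, 0.727 and 1.16, so by this length the higher gene differed between libraries. In treated GFP-negative libraries the ratios per kb were 2.83, 2.03 and 2.24. No treated library overlapped a control library of its fraction. CHRNA4 to CHRNA3 gave 1.5, 1.59 and 1.5 against 6.11, 4.68 and 4.96 in GFP-positive cells, and 2.33, 2.68 and 2.24 against 8.51, 7.36 and 8.31 in GFP-negative cells, likewise without overlap. By counts CHRNA4 thus stood above CHRNA3 in every library. Per kb of exon the GFP-positive ratios were 0.602, 0.638 and 0.602 in controls and 2.45, 1.87 and 1.98 after treatment. SLC5A7 to CHAT ranged from 6.16 to 8.15 in control and from 10.6 to 14.1 in treated GFP-positive libraries, and overlapped between treatments in GFP-negative ones. These ratios are descriptions and were not tested.

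**Figure D4:**
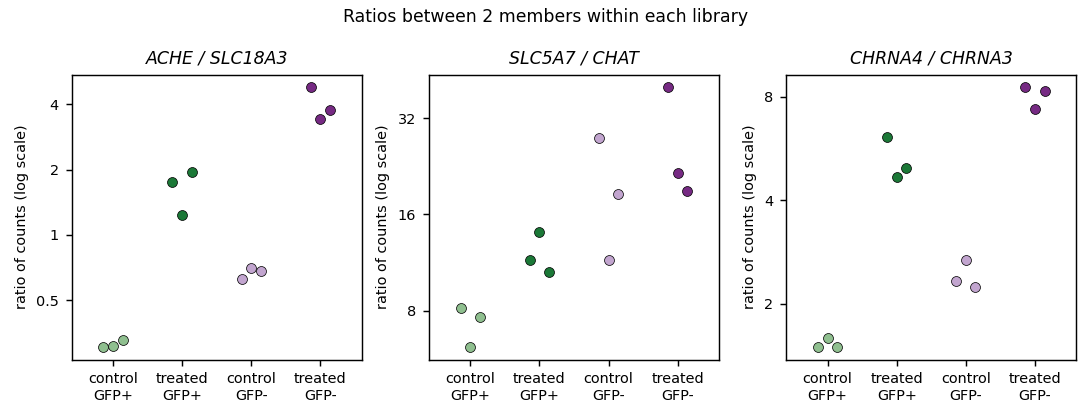
Ratio of the raw counts of ACHE to SLC18A3, SLC5A7 to CHAT and CHRNA4 to CHRNA3 in each library (log axis), 1 point per library and 3 libraries per group. ACHE to SLC18A3 lies between 0.305 and 0.328 in control and between 1.23 and 1.96 in treated GFP-positive libraries.

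The genes most like CHAT across the 12 libraries, by Pearson's r of log2(CPM + 0.5) among 13830 genes with a mean of at least 1 CPM, included TP53INP2 (0.99), SLC5A7 (0.988), NAP1L3 (0.984) and LOC642366 (0.983). Those most like ACHE were APBB3 (0.994), VAMP2 (0.989), SYNGR3 (0.986), TVP23A (0.982) and SYP (0.978). VAMP2, SYNGR3 and SYP encode proteins of synaptic vesicles. SYP averaged 544 and 553 CPM in control and treated GFP-positive cells and 246 and 304 CPM in control and treated GFP-negative cells. All libraries fall into the same 4 groups, so these values describe a shared pattern over groups and carry no p.

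Other nicotinic subunits moved in both directions. Of 13 on the list, 8 were tested in GFP-positive cells, of which 2 were called higher and 2 lower, and 9 in GFP-negative cells, of which 2 were higher and 3 lower. Over all genes tested, 12.8% were called higher and 11.2% lower in GFP-positive cells, and 8.59% and 9.75% in GFP-negative cells. CHRNB4, the beta partner of CHRNA3 in ganglionic receptors and its neighbour in the gene cluster, fell 3.94-fold in GFP-positive cells, from 125, 162 and 147 CPM to 34.1, 48.2 and 23.1 CPM (−1.98, SE 0.2, adjusted p = 2.4e-10). It fell 3.21-fold in GFP-negative cells (−1.68, SE 0.24, adjusted p = 0.00082). CHRNA5, the third gene of the cluster, was 1.88-fold lower in GFP-positive cells (adjusted p = 0.0006), under the 2-fold limit, and fell 2.74-fold in GFP-negative cells (adjusted p = 0.0011). CHRNA2 dropped to the floor, with 46, 87 and 42 counts in control and 0, 2 and 0 counts in treated GFP-positive libraries, and 47, 39 and 18 against 3, 3 and 0 counts in GFP-negative ones.

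Against this direction, CHRNE, the epsilon subunit of the adult muscle receptor, was 0.969, 1.16 and 0.928 CPM in control and 4.95, 5.41 and 4.61 CPM in treated GFP-positive cells, a rise of 5.1-fold (2.35, SE 0.3, adjusted p = 4.5e-08). In GFP-negative cells it rose 12.0-fold (3.59, SE 0.33, adjusted p = 8e-05). Its exons share 1712 bases, or 48.6%, with C17orf107 on the opposite strand, so the origin of those reads is uncertain. CHRNA9, a subunit of hair cell receptors, rose 6.35-fold in GFP-positive cells (adjusted p = 1.2e-05) and 7.97-fold in GFP-negative cells (adjusted p = 0.0019), from 4 to 15 counts per control library. CHRNA7, which forms homomeric receptors, was 4.06-fold higher in GFP-positive than GFP-negative control cells (adjusted p = 0.0017) and 4.5-fold higher after treatment (adjusted p = 0.0004). CHRNA2, CHRNA5 and, in GFP-positive cells, CHRNA9 were named after their values were seen, as were CHRNA1, called lower in GFP-positive than GFP-negative cells in both treatments, and CHRM2. Of 5 muscarinic receptors, 3 were tested in GFP-positive cells, and CHRM4, an inhibitory receptor, rose 2.95-fold from 2.41 ± 1.03 to 6.75 ± 0.85 CPM (adjusted p = 2.4e-05). In GFP-negative cells 2 were tested and 0 were called by edgeR or DESeq2, also with 0 at an unadjusted p under 0.05. CHRM2 was called higher in GFP-positive than GFP-negative treated cells (adjusted p = 0.003), on 24, 43 and 21 counts against 0, 6 and 2 counts, too few for a fold to be given.

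Chaperones and prototoxins, which govern assembly and gating of nicotinic receptors, numbered 7, all tested for the treatment. In GFP-positive cells 5 were called lower and 1 higher, with a median of −1.36, beside 11.2% lower, 12.8% higher and a median of 0.03 over all genes. LYPD6 fell 5.09-fold from 6.64 ± 0.625 to 1.24 ± 0.0954 CPM (adjusted p = 1.1e-08), and LYNX1 and LYPD1 fell 2.58-fold (adjusted p = 1.5e-06) and 2.56-fold (adjusted p = 1e-06). LYNX1 was no longer called with the GC trend removed (−0.91). TMEM35A, the chaperone NACHO, dropped from 215 ± 24 to 80.9 ± 11.8 CPM, and LYPD6B was the fifth. RIC3, another assembly chaperone, rose 2.42-fold instead (adjusted p = 4e-07), from 23.6 ± 3.99 to 54.5 ± 5.72 CPM. TMEM35A, RIC3 and LYPD6B lay outside the naming rule in this comparison and were named after their values were seen. In GFP-negative cells TMEM35A and LYPD6 were called lower, 2.15-fold (adjusted p = 0.0008) and 5.03-fold (adjusted p = 0.00075). There 0 were called higher by edgeR or DESeq2, with RIC3 higher at an unadjusted p under 0.05 in both. Of all genes tested in GFP-negative cells, 9.75% were called lower and 8.59% higher.

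Supply and use of acetyl-CoA, the other substrate of CHAT, were covered by 11 genes, all tested. In GFP-positive cells 3 were called lower and 1, PDHX of the pyruvate dehydrogenase complex, higher (2.1-fold, adjusted p = 6.8e-06), named there after its value was seen. The shares over all genes were 11.2% lower and 12.8% higher. ATP citrate lyase (ACLY), which makes cytosolic acetyl-CoA from citrate, went from 690, 973 and 869 CPM to 300, 342 and 287 CPM, a fall of 2.6-fold (−1.38, SE 0.16, adjusted p = 1.1e-08). Acetyl-CoA synthetase ACSS2 fell 3.34-fold (adjusted p = 1.8e-10) and ACAT2, which condenses acetyl-CoA at the entry to sterol synthesis, fell 4.37-fold (adjusted p = 2.7e-13). These last genes also belong to lipid synthesis. ACAT2 shares 17.2% of its exon bases with TCP1 on the opposite strand. In GFP-negative cells ACAT2 was called lower (3.93-fold, adjusted p = 0.0001) and PDHX higher (2.24-fold, adjusted p = 0.0043). The shares over all genes there were 9.75% lower and 8.59% higher. Without treated GFP-negative replicate 3 PDHX was at 0.956 and lost the call.

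Among 14 genes of choline uptake and phosphatidylcholine synthesis, 12 were tested, and 1 was called in each direction in GFP-positive cells, beside 12.8% higher and 11.2% lower over all genes. PCYT1B, an enzyme of the phosphatidylcholine pathway, fell 3.11-fold (adjusted p = 2e-07) and 3.45-fold in GFP-negative cells (adjusted p = 0.00093). CHPT1, which completes phosphatidylcholine, rose 2.23-fold in GFP-positive cells (adjusted p = 2.4e-05) but stood at 0.60 (log2) with the GC trend removed, below the limit. In GFP-negative cells 2 were called lower, PCYT1B and the choline transporter-like gene SLC44A3, beside 9.75% lower and 8.59% higher over all genes. SLC44A3 (−1.07, adjusted p = 0.022) lost its call in 6 alternatives. Of these, 4 left out control GFP-negative replicate 2 (−1.04) or treated GFP-negative replicate 1 (−1.13), 2 (−1.15) or 3 (−0.96), and the others were the fit of all 12 libraries (−1.06) and the test against a 2-fold change. There 0 were called higher by either tool, against 3 at an unadjusted p under 0.05 in each.

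Agrin and the other organisers of the neuromuscular synapse numbered 8, with 5 tested in GFP-positive and 6 in GFP-negative cells. In GFP-positive cells 3 were called lower and 0 higher, also 0 by DESeq2 and 0 higher at an unadjusted p under 0.05, where 11.2% of all genes were called lower and 12.8% higher. AGRN, the nerve-derived signal that clusters receptors on muscle, fell 2.37-fold from 483 ± 51 to 194 ± 50.8 CPM (adjusted p = 3e-07), and by 2.4-fold in GFP-negative cells (adjusted p = 0.0011). It was no longer called in either fraction with the GC trend removed, at −0.68 and −0.92. NRG1, the neuregulin gene, fell 2.96-fold (adjusted p = 1.2e-09) and 2.33-fold (adjusted p = 0.0022). COL13A1, a transmembrane collagen of the synapse, fell 5.4-fold in GFP-positive cells (adjusted p = 2.8e-06) and rose 2.56-fold in GFP-negative cells (adjusted p = 0.0073). LRP4, the agrin receptor, was called lower in GFP-negative cells, 2.21-fold (adjusted p = 0.026), and was named after its value was seen.

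**Figure D5:**
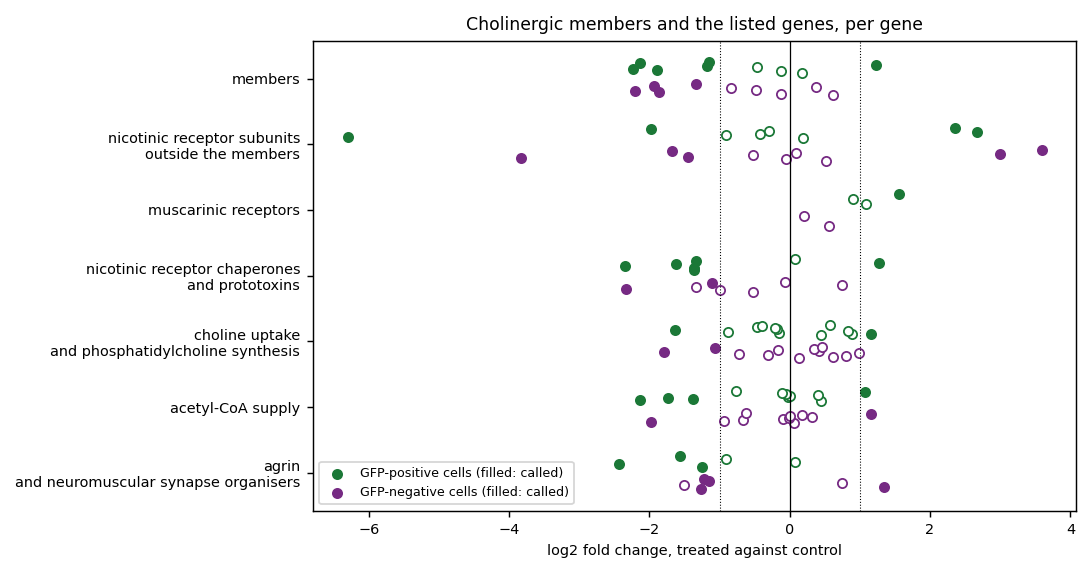
Log2 fold change of treated against control for every tested member and listed gene, 1 point per gene, green for GFP-positive and purple for GFP-negative cells, with filled points called. Dotted lines mark a 2-fold change, and the leftmost pair of points is CHRNA2, whose treated libraries held 0 to 3 counts and whose fitted value is not a fold estimate.

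Sort fractions also differed in the listed genes. In control cultures GFP-positive cells had higher CHRNB4 (3.81-fold, adjusted p = 2.4e-05), NRG1 (3.47-fold, adjusted p = 1.8e-05), LYNX1 (2.59-fold, adjusted p = 0.00043), TMEM35A (2.54-fold, adjusted p = 6.7e-05), ACSS2 (2.29-fold, adjusted p = 0.0002) and PCYT1B (2.22-fold, adjusted p = 0.0027). PCYT1B stood at 0.951 (log2) and was not called without control GFP-positive replicate 2. LYPD1 was 9.18-fold (adjusted p = 8.7e-07), LAMB2 9.51-fold (adjusted p = 1.2e-06), FLVCR2 9.07-fold (adjusted p = 3.2e-05), SLC44A3 7.81-fold (adjusted p = 0.00015) and LRP4 6.83-fold (adjusted p = 0.00015) higher in GFP-negative cells. CHRM4 was 2.15-fold higher there too (adjusted p = 0.027), a call lost without any of 3 control libraries (GFP-positive replicate 2 or 3, at −1.12 and −0.80, or GFP-negative replicate 2, at −1.07). After treatment CHRNB4 (3.18-fold, adjusted p = 0.00028), PCYT1B (2.54-fold, adjusted p = 0.0013), RIC3 (2.36-fold, adjusted p = 4.5e-05) and TMEM35A (2.22-fold, adjusted p = 0.00011) were higher in GFP-positive cells, TMEM35A losing its call without treated GFP-positive replicate 2 (0.998). LAMB2 (14.8-fold, adjusted p = 2.1e-08), LYPD1 (11.5-fold, adjusted p = 1.1e-07), FLVCR2 (9.89-fold, adjusted p = 1.4e-05), COL13A1 (9.0-fold, adjusted p = 1.8e-05), LRP4 (5.7-fold, adjusted p = 0.00045) and SLC44A2 (2.81-fold, adjusted p = 0.00013) were higher in GFP-negative cells. Of the acetyl-CoA genes 0 were called in either direction after treatment by either tool, with 3 higher and 1 lower at an unadjusted p under 0.05 by edgeR. Over all genes tested, 10% were called higher and 13.7% lower in GFP-positive than GFP-negative treated cells. LYPD1 shares 29.7% of its exon bases with GPR39 on the opposite strand.

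Markers of the sorted cells moved beside the members. ISL1 stood at 66.1, 62.4 and 68.6 CPM in control and 8.01, 15.3 and 12.6 CPM in treated GFP-positive cells, and at no more than 2.79 CPM in GFP-negative cells. It was called lower after treatment in GFP-positive (−2.38, adjusted p = 6e-12) and GFP-negative cells (−2.23, adjusted p = 0.0015). The reporter follows ISL1 and sorting came after exposure. Whether treated and control fractions held the same kinds of cells was not tested. The summed level of 8 motor neuron markers, 0 of them at the floor, was 4970 to 6450 CPM in control and 3300 to 4590 CPM in treated GFP-positive libraries, and 1330 to 1400 against 651 to 875 CPM in GFP-negative ones. Of these, 4 of 8 were called lower after treatment in GFP-positive and 2 of 8 in GFP-negative cells, against 11.2% and 9.75% of all genes. The sums followed NEFL, which was not called in either fraction. NEFL averaged 4740 and 3250 CPM in control and treated GFP-positive cells, with overlapping libraries, and 1150 and 606 CPM in GFP-negative cells. Among the defining genes, MNX1 averaged 11.4 CPM and LHX3 1.91 CPM in control GFP-positive cells, with LHX3 at 4.44 CPM in GFP-negative cells. The 7 autonomic and visceral markers summed to 1170 to 1400 CPM in control and 313 to 423 CPM in treated GFP-positive libraries, and to 360 to 414 against 103 to 127 CPM in GFP-negative ones, with HAND2 at the floor after treatment.

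Among other cell types, 9 neural progenitor markers summed to 2920 to 3280 CPM in control and 2370 to 3180 CPM in treated GFP-positive libraries, and to 6250 to 8030 and 7290 to 8340 CPM in GFP-negative ones, with HES5 at the floor throughout. The GFP-negative sum followed VIM, at a mean of 3860 CPM in control and 6420 CPM in treated cells. There 4 of 8 tested progenitor markers were called lower and 0 higher by edgeR, against 9.75% and 8.59% of all genes. The median of the markers was −0.96. Among the progenitor markers MKI67 averaged 169 and 32 CPM, NKX2-2 60.6 and 18.2 CPM, and NES 2630 and 1120 CPM in control and treated GFP-negative cells. In GFP-positive cells PAX6 was called higher, at 7.93 and 30.4 CPM, and MKI67 lower. The 6 mesenchymal markers gave 245 to 308 and 48.9 to 78.5 CPM in GFP-positive libraries and 736 to 855 and 462 to 743 CPM in GFP-negative ones, with LUM at the floor in treated GFP-positive cells. The GFP-negative sum followed COL1A1, called lower at 598 and 281 CPM, whereas COL1A2 stood at 193 and 300 CPM without a call. For 7 glial markers, with AQP4 at the floor throughout, SOX10 in all but treated GFP-positive cells, GFAP in control and S100B in treated GFP-positive cells, the control ranges were 8.95 to 11.2 CPM (GFP-positive) and 32.7 to 61.7 CPM (GFP-negative), and the treated ranges 2.7 to 4.38 and 8.63 to 12.6 CPM. The 7 excitatory interneuron markers spanned 11.4 to 14.6 and 1.22 to 2.89 CPM in GFP-positive libraries and 37.6 to 40.5 and 5.95 to 10.8 CPM in GFP-negative ones, with SIM1 at the floor. The 8 inhibitory ones summed to 1.6 to 2.32 and 1.55 to 2.12 CPM in GFP-positive libraries and to 10.3 to 11.6 and 4.75 to 5.59 CPM in GFP-negative ones. In GFP-negative cells 3 of 7 tested were called lower, against 9.75% of all genes. LHX1 was at the floor outside control GFP-negative cells, EN1 in control and GAD2, SLC6A5 and PAX2 in treated GFP-positive cells. The 7 skeletal muscle markers summed to 13.4 to 23.8 CPM in control and 54.6 to 62.6 CPM in treated GFP-negative libraries and lay between 6.05 and 9.19 CPM in GFP-positive ones, with MYOD1 and MYF5 at the floor in all groups and MYOG in all but control GFP-positive cells. The GFP-negative sum followed DES, at 15.5 and 55.6 CPM, while MYH3 averaged 1.71 and 1.76 CPM and TNNT1 1.33 and 0.751 CPM, and the median of the 3 tested was 0.02. The part of these markers in the changes of the cholinergic genes was not tested.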

How the data were processed

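RNA of 12 libraries was sequenced by the authors from a stranded mRNA kit. Per the labels and the study's methods, reads were mapped to hg38 with HISAT2 using an Ensembl annotation and assigned with featureCounts, and the deposited values are whole-number counts per gene, used as deposited. Whether counting used the strand is not given in the sources used here. Counts were tested in edgeR 4.0.16 (R 4.3.3) with TMM scaling, filterByExpr (minimum count 10, minimum total 15), the quasi-likelihood F-test and Benjamini-Hochberg adjustment over all genes tested. Folds come from the fit of each comparison, and printed levels are CPM scaled over all libraries. Intervals of log2 fold changes use the t distribution of the fit. An exact permutation test of 3 against 3 libraries cannot reach 0.05, so none is given. The members and gene lists were chosen with earlier results of these data known.

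Called genes of each list were named, at most 3 per comparison, in order of absolute log2 fold change, where their mean over the compared libraries reached 1 CPM. Exon lengths, merged over all annotated transcripts of a gene, and overlaps came from GENCODE 44. It matched 25763 of the 28278 symbols (91.1%). Alternatives were DESeq2 1.42.0, scaling by RLE or by library size only, a fit without the filter, a filter of 10 counts or more per library, a replicate block, removal of a GC trend in each library (loess span 0.5, over the 95.3% to 95.8% of tested genes with a GC value), glmTreat, all 12 libraries together, and each library left out. Scripts were tested on simulated data. GFP-positive and GFP-negative libraries of the same treatment and number were taken as sorts of the same culture. The main fits did not pair them, either between the fractions or for the interaction. Standard errors, intervals and p-values of those comparisons therefore leave the pairing out, and the replicate block added it as an alternative. After subtracting group means, log2 levels of such pairs correlated at 0.16 to 0.48 in controls and 0.2 to 0.55 in treated cells. These values cover 13368 genes, which are not independent replicates. The own number was the highest for 3 of 3 in controls and 2 of 3 in treated cells, where replicate 1 gave 0.2 against 0.28 with another number. Replicates of a group differed by more than sampling noise in every pair. The 3-count floor covers counting error only. Per-sample columns left unused numbered 0. Values of some genes that the rules would name are not reported here.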

Additional observations from a re-analysis of the deposited data

Results flagged for a closer look

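The response of 2 of 49 listed genes tested, or 4.08%, differed between the sort fractions by the interaction test in edgeR, in which 2.19% of all 16226 genes passed, and neither is a member. DESeq2 called both and also CHRM4 (1.33, adjusted p = 0.035) and LYNX1 (−0.88, adjusted p = 0.045), which did not pass in edgeR (adjusted p = 0.14 and 0.099). The share of all genes that passed in DESeq2 is not given here. Its 4 of 49 listed genes (8.16%) can therefore not be set against a background of that tool. COL13A1, which fell 5.4-fold in GFP-positive and rose 2.56-fold in GFP-negative cells, gave a difference of −3.87 on the log2 scale (SE 0.49, adjusted p = 0.00086). Its levels were 3.65, 2.38 and 2.4 CPM in control and 0.42, 0.744 and 0.318 CPM in treated GFP-positive libraries, against 1.67, 2 and 1.56 CPM and 5.01, 4.98 and 3.61 CPM in GFP-negative ones. ACSS2 gave −1.16 (SE 0.21, adjusted p = 0.0099), from 105, 131 and 107 CPM to 33.2, 36 and 29 CPM in GFP-positive and from 42.9, 46.6 and 50 CPM to 28.9, 29.2 and 30.8 CPM in GFP-negative libraries. The ACSS2 difference no longer passed without treated GFP-positive replicate 1 (−1.01, adjusted p = 0.064) or replicate 3 (−0.91, adjusted p = 0.057).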

How the results depend on the processing

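The 3 libraries a group and the scarcity of CHAT in GFP-negative cells (11 to 172 counts per library) limit these results, and PRIMA1 could not be measured. The count of members called was 6 in treated GFP-positive cells and 4 in treated GFP-negative cells, and a test against a fold of 2 (glmTreat) left 3 and 2. Between the fractions it was 6 in both treatments, and glmTreat left 5 in controls and 4 after treatment, where removal of the GC trend gave 8. With 1 library left out, it ranged from 5 to 6 in GFP-positive and from 2 to 4 in GFP-negative cells, with 2 reached without treated GFP-negative replicate 1 or 3. Between the fractions it was then 6 throughout in controls and 5 to 7 after treatment. The interaction gave 0 under every alternative run. Leaving out 1 library gave 276 values for members, of which 7 lost and 3 gained a call and 6 changed sign. Of 359 under the other alternatives, 9 lost and 3 gained a call and 3 changed sign. The last were the CHAT interaction (−0.12), at 0.161 with library size alone, 0.04 with at least 10 counts in every library and 0.001 with the GC trend removed. With 1 library left out, the CHAT interaction ranged from −0.492 to 0.314, that of SLC18A3 (−0.29) from −0.56 to 0.082, and BCHE in GFP-positive cells (−0.12) from −0.453 to 0.048, all without a call. Library size alone moved the median of all genes from 0.03 to 0.14 in treated GFP-positive cells and from 0.05 to 0.22 between treated fractions; the cause was not tested. The replicate block left 6 and 4 members called for the treatment, 6 and 6 between the fractions and 0 for the interaction, and changed no call among 98 values. Treated and control libraries of the same number correlated at −0.04 to 0.24 in GFP-positive and −0.08 to 0.25 in GFP-negative cells, their own number being the highest for 2 of 3 and 1 of 3. A pair lay below 0 in each fraction, and such correlations cannot decide whether same-numbered cultures came from the same thaw. Treated and control libraries were not paired in the main fits.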
